A study of Gallus gallus with 4 samples.

Results

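The genes described here move protons, carbon dioxide and bicarbonate across membranes: the subunits of the vacuolar proton pump (V-ATPase) and its accessory proteins, the carbonic anhydrases, the SLC4A and SLC26A anion transporters, and the transcription factor FOXI1. The rule that chose them uses gene names and no measured value: symbols that begin with ATP6V, ATP6AP, SLC4A or SLC26A, symbols made of CA and a number, and FOXI1. The red blood cell anion exchanger SLC4A1 was left out. This gave 55 genes of the 13008 that the array names, and 45 of the 55 passed a filter on low signal (mean signal over the 4 arrays above 11.1), against 10505 of all named genes. All 9 V1 subunits, all 9 V0 subunits and all 3 accessory genes passed, as did 10 of 13 carbonic anhydrases, 7 of 10 SLC4A genes, 6 of 10 SLC26A genes and FOXI1. The name rule also caught SLC4A1AP, which encodes an adaptor protein and no transporter. ATP6V1B1, the B subunit of acid-secreting kidney cells in mammals, was not analysed here.

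RNA came from the chorio-allantoic membrane (CAM) of the chick embryo, the vascular membrane under the shell. A plastic disc carrying 3 µg of recombinant human VEGF-A was placed on the membrane on day 13, and the tissue beneath it was cut out 24 h later, on day 14, where new capillaries were visible. Each of the 3 VEGF CAMs was hybridised to its own Affymetrix chicken array. RNA of 3 normal CAMs of the same day was pooled in equal amounts on 1 array, so the spread between control membranes was not measured. The sources differ on whether the control membranes carried a disc with solvent, and no strain is given. The VEGF CAMs are separate membranes, picked where their vessels were seen to grow.

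The V-ATPase is a rotary pump. Its V1 sector in the cytosol splits ATP, and its V0 sector in the membrane carries protons through. Carbonic anhydrases turn carbon dioxide and water into bicarbonate and a proton, and SLC4A and SLC26A proteins exchange or carry the bicarbonate, often against chloride. In the CAM this chemistry is known from the villus cavity cells of the chorionic epithelium, which release acid towards the shell as its calcium is taken up. In mammals the same parts, under FOXI1, define the intercalated cells of the kidney. The membrane is a mixture of epithelium, vessels, blood and stroma, so fewer cells of a type and less RNA per cell cannot be told apart in these values.

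Signals are on a linear scale in arbitrary units, and every array had a trimmed mean of 100.03. The median signal ranged from 15.3 to 19.1, and was highest in the control pool. The 3′ to 5′ signal ratio of GAPDH was 64.0 for the control pool against 39.9, 52.4 and 62.3 for VEGF CAMs 1, 2 and 3. That of actin was 24.2 for the control pool against 15.5, 19.7 and 22.9, and that of ef1a was 8.74 against 5.74, 6.65 and 7.38. For each, the control pool had the highest ratio and VEGF CAM 1 the lowest. The part of this difference in the ratios to the control was not tested. Markers of each of the tissue's listed cell types passed the filter on mean signal, though some lay below the filter's signal on single arrays. By the fold rule given in the next paragraph, 5.37% of all genes were called higher and 6.03% lower. Of 20 blood endothelial markers, 15 were called higher and 0 lower. Many of these markers are genes that the study reported as raised on these same arrays, so their count is no separate evidence. Called higher and lower were 0 and 2 of 23 epithelial, 4 and 1 of 15 red blood cell and 5 and 1 of 20 fibroblast markers. Of 17 macrophage and osteoclast markers, 2 were called higher and 2 lower. Among the markers called higher, the control signals of HBZ (red blood cell, 3.78), NFATC1 (macrophage and osteoclast, 5.30) and PTPRB (blood endothelial, 9.57) lay below the filter's signal. These markers passed the filter through the VEGF CAMs. The fibroblast marker called lower, PDGFRA, had 21.9 for the control pool against 7.53, 18.4 and 5.44 for VEGF CAMs 1, 2 and 3. The mean of its VEGF signals lay below the filter's signal, so PDGFRA passed only through the control. The summed epithelial signal was 71377 for the control pool against 49778, 72706 and 61441 for VEGF CAMs 1, 2 and 3. VEGF CAM 1 had the lowest epithelial sum, and 12 of the 23 epithelial markers had their lowest signal there, where 27.1% of all genes did. So did 10 of the 17 macrophage and osteoclast markers.

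Across the whole group, few genes differed from the control pool by the study's own fold rule, which asks for a change past 2-fold against the control pool in 2 or more of the 3 VEGF CAMs. CA4, SLC26A9 and SLC4A4 were called higher, where 5.37% of all genes were called higher, and CA3B and SLC26A5 were called lower, where 6.03% were. The other 40 members were called in neither direction. The 5 calls are 3 of 45 and 2 of 45 members, close to the background shares. Asking for all 3 comparisons left 0 members higher, where 2.3% of all genes were. It left both CA3B and SLC26A5 lower, 2 of 45, where 1.29% of all genes were. SLC26A5 passed the filter only through the control, and CA4 only through the VEGF CAMs, so these 2 calls are descriptions. Taken one membrane at a time, 3 members were past 2-fold higher in VEGF CAM 1 (6.84% of all genes), while VEGF CAM 2 had 4 such members (6.76%) and VEGF CAM 3 had 2 (6.04%). Past 2-fold lower, VEGF CAM 1 had 4 members (9.6%), VEGF CAM 2 had 6 (10.1%) and VEGF CAM 3 had 3 (7.34%). VEGF CAM 1 was the lowest of the 4 arrays for 17 of the 45 members, where it was for 27.1% of all genes. Of the 135 single log2 ratios to the control pool, 113 lay within 2-fold. The median of the mean log2 ratio was -0.08 over the members and -0.07 over all genes. Centring every array on its own median moved these to 0.17 and 0.19, and 21 of the 45 members lay above the median of all genes under either scaling. Over all genes, calls in the higher direction made up 47.1% of calls on the deposited scale, 59.1% after quantile normalization and 71.9% after centring.

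In limma, 0 members passed an adjusted p of 0.05, and neither did any of the 10505 genes (0.0%). In the limma fit across all probe sets, CA3B alone among the members had an unadjusted p under 0.05, at 0.018. It was lower, as were 2.11% of all genes by that measure, and 0 members were higher, where 3.98% of all genes were. With 3 arrays against 1, an exact permutation test cannot go below p = 0.25. The lone control array was assumed to vary like the VEGF CAMs. All 3 VEGF CAMs lay above the control pool for 9 members and below it for 13, where the shares over all genes were 24.6% and 29.8%.

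**Figure D1:**
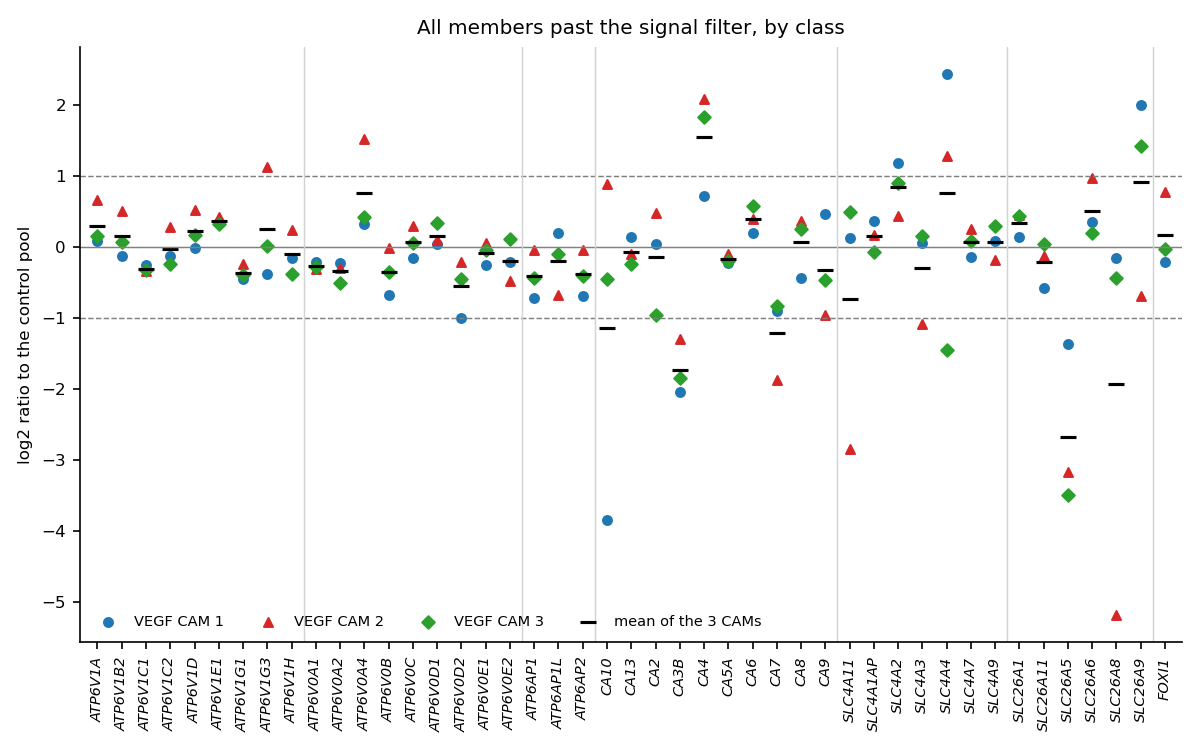
Log2 ratio of each VEGF CAM to the control pool (vertical axis) for the 45 members past the signal filter, in their classes; coloured points are the 3 CAMs and the black bar their mean. Of the 54 ratios of the V-ATPase subunits, 51 lie within 2-fold, where 26614 of 31515 do over all genes. The exceptions are ATP6V0A4 and ATP6V1G3 in VEGF CAM 2 and ATP6V0D2 in VEGF CAM 1. The widest spreads between CAMs belong to SLC26A8 and CA10, both dim.

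None of the 9 V1 subunits was called, nor any of the 18 V-ATPase subunits together. Among the 6194 genes at least as bright as the dimmest of the 18, 3.45% were called higher and 1.92% lower. ATP6V1E1, part of the stalks that hold the ATP-splitting head, had a signal of 1231 for the control pool against 1573, 1641 and 1529.6 for VEGF CAMs 1, 2 and 3. All 3 VEGF CAMs lay above the control by similar amounts (mean log2 ratio 0.36 ± 0.05 SD, n = 3, limma standard error 0.26, limma adjusted p = 0.863). ATP6V1B2, the widely expressed B subunit, had 1173 for the control pool against 1071, 1662 and 1234 for VEGF CAMs 1, 2 and 3, and ATP6V1D, part of the central rotor, had 1093 for the control pool against 1081, 1559 and 1222 for VEGF CAMs 1, 2 and 3. For both, VEGF CAM 2 stood above the other 3 arrays, which lay close together. ATP6V1A, the subunit that holds the catalytic site, was named after its values were seen. Its signal was 437 for the control pool against 463, 688 and 486 for VEGF CAMs 1, 2 and 3, with log2 ratios of 0.08, 0.66 and 0.15. A second, dimmer probe set of it gave 0.23, 0.80 and 0.63, so VEGF CAM 2 was again the highest array.

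The V0 subunits form the membrane sector. ATP6V0C encodes the proteolipid of the ring that carries protons, and its signal was 5384 for the control pool against 4842, 6615 and 5589.6 for VEGF CAMs 1, 2 and 3. The 3 VEGF CAMs lay on both sides of the control (mean log2 ratio 0.07 ± 0.23 SD, n = 3). A second, dim probe set of ATP6V0C gave log2 ratios of 0.14, 0.77 and 0.66. A further dim probe set gave -1.41, -3.56 and -0.49. ATP6V0E1, a small membrane subunit, had 1390.0 for the control pool against 1164, 1444 and 1346 for VEGF CAMs 1, 2 and 3, a range in which the arrays hardly separated. Its dim second probe set gave log2 ratios of -0.83, -4.20 and 0.33. ATP6V0A2, a form of the a subunit that lines the proton path, had 933 for the control pool against 794, 757 and 656 for VEGF CAMs 1, 2 and 3. All 3 VEGF CAMs lay below the control there (mean log2 ratio -0.35 ± 0.14 SD, n = 3, limma standard error 0.29, limma adjusted p = 0.866). By class, the median of the mean log2 ratio was 0.15 for V1 and -0.20 for V0. That of V1 stayed above 0 after quantile normalization and after centring. That of V0 turned to 0.06 after centring, where the median of all genes was 0.19. In VEGF CAMs 1, 2 and 3 the medians were -0.13, 0.42 and 0.01 for V1 and -0.22, -0.01 and -0.05 for V0. VEGF CAM 2 was the highest array for 7 of the 9 V1 and 3 of the 9 V0 subunits, where it was for 26.2% of all genes.

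**Figure D2:**
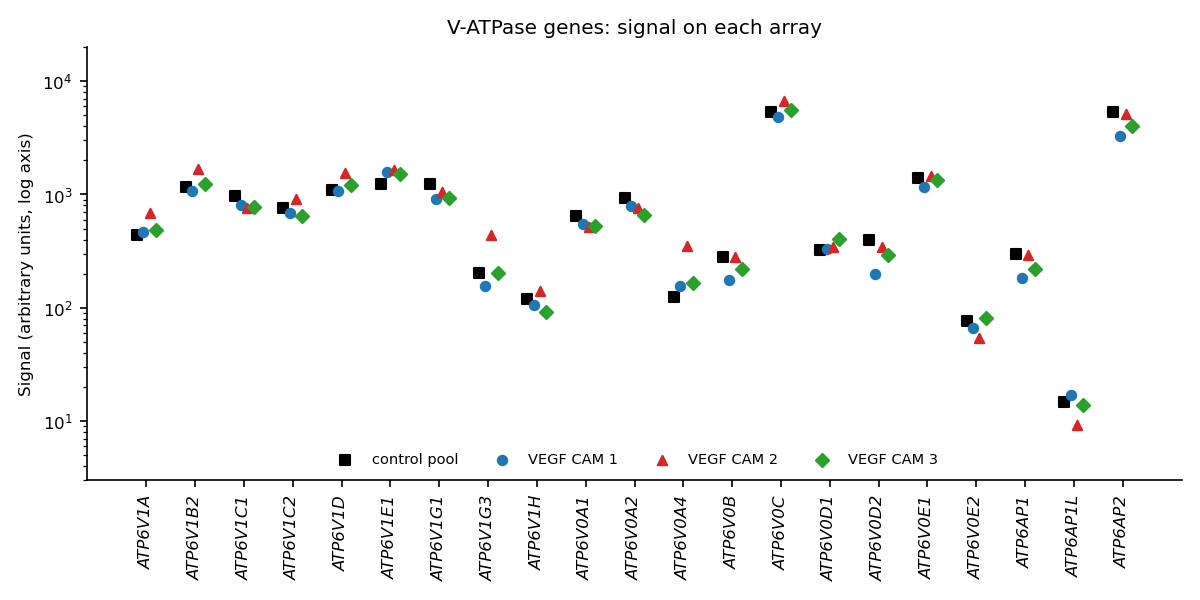
Signal on each of the 4 arrays (vertical log axis, arbitrary units) for the V-ATPase genes, with 1 point per array and no error bar because each array is 1 sample. For 10 of the 18 subunits the control pool lies outside the range of the VEGF CAMs. It lies above that range for 6, where it does for 29.8% of all genes, and below it for 4, where it does for 24.6%. VEGF CAM 2 is set apart upwards for ATP6V0A4 and ATP6V1G3.

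The V-ATPase also has forms that in mammals are restricted to few tissues, among them acid-secreting kidney cells. ATP6V1G3, the restricted form of a stalk subunit, had a signal of 204 for the control pool against 156, 443 and 205 for VEGF CAMs 1, 2 and 3. The control and VEGF CAM 3 were alike, VEGF CAM 1 was lower, and VEGF CAM 2 was more than 2-fold above the control (mean log2 ratio 0.25 ± 0.78 SD, n = 3, limma standard error 0.57, limma adjusted p = 0.927). ATP6V0A4, the kidney form of the a subunit, had 123 for the control pool against 154, 353 and 165 for VEGF CAMs 1, 2 and 3, again with VEGF CAM 2 alone past 2-fold (mean log2 ratio 0.75 ± 0.66 SD, n = 3, limma standard error 0.51, limma adjusted p = 0.863). Its second probe set past the filter gave log2 ratios of -0.51, -0.05 and -0.33, so the 2 probe sets of this gene disagreed.

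ATP6V1C2, the restricted form of the subunit that joins stalk and membrane, had 758 for the control pool against 693, 917 and 641 for VEGF CAMs 1, 2 and 3. VEGF CAM 2 was the highest array and the other VEGF CAMs lay below the control. A second probe set gave -0.42, 1.08 and -0.25 in the same order, with VEGF CAM 2 far above the other arrays, and another, dim one gave -0.45, -0.47 and -0.71. ATP6V0D2, the form of the d subunit known from osteoclasts and kidney, had 397 for the control pool against 198, 344 and 291 for VEGF CAMs 1, 2 and 3. The control was the highest array here and VEGF CAM 1 the lowest, just past 2-fold below it (mean log2 ratio -0.55 ± 0.41 SD, n = 3, limma standard error 0.39, limma adjusted p = 0.863). The dimmer second probe set of ATP6V0D2 gave -0.22, 0.57 and 0.38, so its direction did not hold between probe sets.

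FOXI1, the transcription factor that drives the acid-secreting cell type of the mammalian kidney, had 25.2 for the control pool against 21.7, 43.0 and 24.6 for VEGF CAMs 1, 2 and 3. VEGF CAM 2 was the highest array, by less than 2-fold, and the other 3 lay close together (mean log2 ratio 0.17 ± 0.53 SD, n = 3, limma standard error 0.56, limma adjusted p = 0.952).

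VEGF CAM 2 was the highest of the 4 arrays for 10 of the 18 V-ATPase subunits, where 26.2% of all genes, and 25.6% of those at least as bright as the dimmest subunit, had their highest signal there. The control was highest for 6, VEGF CAM 3 for 2 and VEGF CAM 1 for 0. This count was chosen after the values were seen, it describes 1 membrane, and it was 9 under quantile normalization, centring, or the mean of a gene's probe sets. More than 2-fold above the control in that membrane were 2 of the 18 subunits, ATP6V0A4 and ATP6V1G3, against 6.76% of all genes and 3.92% of those as bright. The log2 signal of VEGF CAM 2 minus the mean of VEGF CAMs 1 and 3 had a median of 0.39 over the subunits and 0.00 over all genes. It was above 0 for 14 of the 18 subunits, where 50.2% of all genes were above 0, and for 12 after centring, where 39.1% were. The 4 restricted forms had a median of 0.83 and the 14 widely expressed forms 0.19. Of the restricted forms, ATP6V1G3 had 1.31, ATP6V0A4 1.14, ATP6V0D2 0.52 and ATP6V1C2 0.46. The widely expressed forms reached 0.54, in ATP6V1A, so only ATP6V1G3 and ATP6V0A4 lay above all of them.

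Among the 18 subunits this difference ranged from 1.31 for ATP6V1G3 and 1.14 for ATP6V0A4 down to -0.43 for ATP6V0E2, a small membrane subunit. It was 0.90 for FOXI1, itself dim. Other members named from kidney or villus cavity cells went both ways. CA2 had 0.94, CA4 0.80, SLC4A4 0.79, SLC4A9 -0.38 and CA9 -0.95. Marker lists of several cell types also differed between VEGF CAM 2 and the other VEGF CAMs. The epithelial sum given above was highest in VEGF CAM 2, yet 8 of the 23 epithelial markers had their highest signal there and the median difference over the list was 0.10. For fibroblast markers the sum was 30879 for the control pool against 45544, 59799 and 52151 for VEGF CAMs 1, 2 and 3, 10 of 20 were highest in VEGF CAM 2, and the median difference was 0.23. The blood endothelial sum was 6579 for the control pool against 14168, 8571 and 15066 for VEGF CAMs 1, 2 and 3, 1 of 20 was highest in VEGF CAM 2, and the median difference was -0.77. The red blood cell sum was 29893 for the control pool against 27762.5, 41540 and 35318 for VEGF CAMs 1, 2 and 3. It was highest in VEGF CAM 2, as were 6 of the 15 markers, yet the median difference was -0.21. For macrophage and osteoclast markers the sum was 5800.5 for the control pool against 3364, 5190 and 6232 for VEGF CAMs 1, 2 and 3. Of these 17 markers, 6 were highest in VEGF CAM 2, and the median difference was 0.27. The part of these cell types in the V-ATPase values was not tested.

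**Figure D3:**
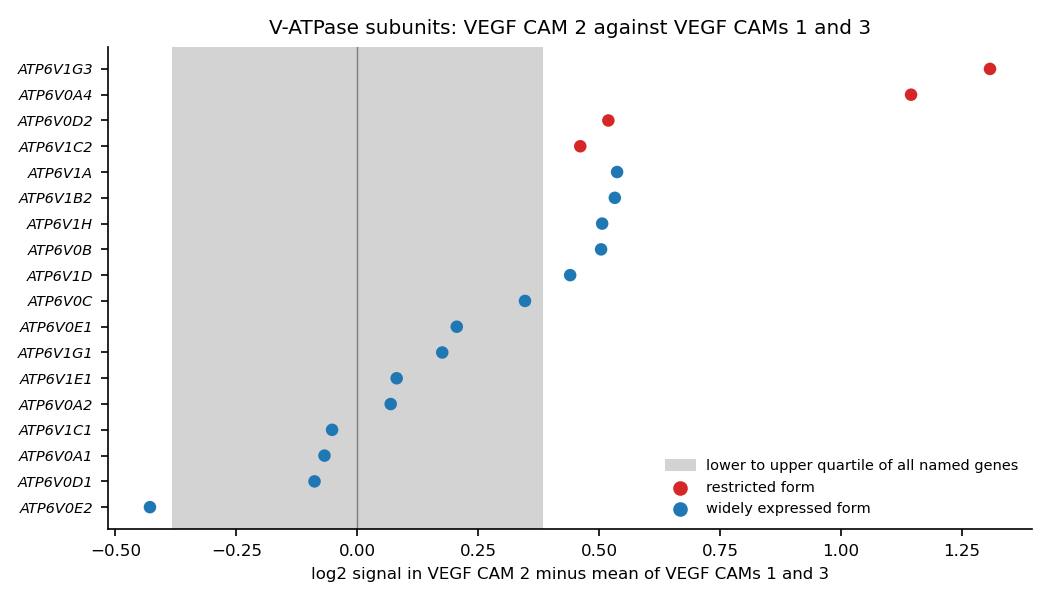
Log2 signal in VEGF CAM 2 minus the mean of VEGF CAMs 1 and 3 (horizontal axis) for the 18 V-ATPase subunits, red for restricted and blue for widely expressed forms; the grey band is the range between the lower and upper quartiles of all named genes. ATP6V1G3 and ATP6V0A4 lie far to the right of the band.

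The accessory proteins help to assemble and steer the pump. ATP6AP2, also known as the prorenin receptor, had 5319 for the control pool against 3298, 5168 and 3995 for VEGF CAMs 1, 2 and 3. ATP6AP1, which assists assembly of V0, had 301 for the control pool against 183, 290.1 and 221 for VEGF CAMs 1, 2 and 3. In both, VEGF CAM 2 matched the control and VEGF CAM 1 was the lowest array, and neither was called (mean log2 ratio -0.38 ± 0.33 SD, n = 3 for ATP6AP2 and mean log2 ratio -0.41 ± 0.33 SD, n = 3 for ATP6AP1). ATP6AP1L, a gene similar to ATP6AP1, was dim at 14.8 for the control pool against 17.0, 9.24 and 13.8 for VEGF CAMs 1, 2 and 3, with the mean of VEGF CAMs close to the control.

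Among the carbonic anhydrases, 1 was called higher and 1 lower. CA13, a cytosolic enzyme, had 1766 for the control pool against 1941, 1649.9 and 1493 for VEGF CAMs 1, 2 and 3. CA5A, the mitochondrial enzyme, had 1241 for the control pool against 1059.6, 1153 and 1079.8 for VEGF CAMs 1, 2 and 3. In these probe sets the 4 arrays of either gene lay within a narrow range and overlapped the control or stayed just below it. A second, dimmer probe set of CA13 gave log2 ratios of 0.00, -0.23 and -0.73. Another dim one gave -1.74, -0.26 and -1.92, past 2-fold lower in VEGF CAMs 1 and 3. CA2, the fast cytosolic enzyme of red blood cells, kidney and bone-resorbing cells, had 69.7 for the control pool against 71.6, 97.2 and 35.7 for VEGF CAMs 1, 2 and 3. VEGF CAM 3 lay nearly 2-fold below the control, and VEGF CAM 2 lay above it (mean log2 ratio -0.15 ± 0.74 SD, n = 3).

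CA3B, related to the slow cytosolic CA3 of mammalian muscle, was called lower. Its signal was 56.2 for the control pool against 13.5, 22.7 and 15.7 for VEGF CAMs 1, 2 and 3. All 3 VEGF CAMs lay below the control, each by more than 2-fold (mean log2 ratio -1.73 ± 0.39 SD, n = 3, limma standard error 0.57, limma adjusted p = 0.695). On the linear scale the VEGF CAMs averaged 0.308 ± 0.086 of the control signal (SD, n = 3). It was past 2-fold in all 3 comparisons, where 1.29% of all genes were lower by as much. The VEGF signals are dim, and adding an offset of 32 to every signal moved the mean log2 ratio to -0.84 and ended the call.

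CA4, an enzyme anchored to the outer cell surface, was called higher. Its signal was 6.30 for the control pool against 10.3, 26.5 and 22.4 for VEGF CAMs 1, 2 and 3. VEGF CAMs 2 and 3 lay well above the control and VEGF CAM 1 less so (mean log2 ratio 1.54 ± 0.73 SD, n = 3, limma standard error 0.88, limma adjusted p = 0.854). The control value was below the filter's signal of 11.1, so the ratio rests on a dim control. CA4 passed the signal filter only through the VEGF CAMs, whose mean signal was 19.7, so the call is given as a description. VEGF CAMs 2 and 3 alone passed 2-fold and the rule asks for 2, so leaving out either ends the call by construction (mean log2 ratio 1.27 without VEGF CAM 2 and 1.39 without VEGF CAM 3). CA9, a surface enzyme known to be induced by low oxygen, had 99.9 for the control pool against 137, 51.5 and 72.2 for VEGF CAMs 1, 2 and 3. VEGF CAM 1 lay above the control and the other 2 below it, and it was not called (mean log2 ratio -0.32 ± 0.72 SD, n = 3). CA12, a membrane enzyme of secreting epithelia, stayed below the filter, with signals up to 12.8.

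Among the SLC4A genes, SLC4A4 was called higher. It encodes a sodium bicarbonate cotransporter and had 15.5 for the control pool against 83.5, 37.6 and 5.65 for VEGF CAMs 1, 2 and 3. VEGF CAMs 1 and 2 lay above the control and VEGF CAM 3 below it, so the group straddled the control (mean log2 ratio 0.75 ± 2.00 SD, n = 3, limma standard error 1.32, limma adjusted p = 0.907). The call rests on VEGF CAMs 1 and 2, so it ends by construction without either, and without VEGF CAM 1 the mean log2 ratio turned to -0.086 (0.49 without VEGF CAM 2). A second probe set gave 0.11, 0.66 and -1.44. SLC4A2, a chloride and bicarbonate exchanger of many epithelia, had 56.0 for the control pool against 127, 75.2 and 104 for VEGF CAMs 1, 2 and 3. All 3 VEGF CAMs lay above the control (mean log2 ratio 0.83 ± 0.38 SD, n = 3, limma standard error 0.41, limma adjusted p = 0.848), with more than 2-fold in VEGF CAM 1. Among the settings run it was called higher only after each array was centred on its median. A dim second probe set of SLC4A2 had log2 ratios of -0.94, -2.04 and -1.86, the opposite direction.

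SLC4A7, a sodium bicarbonate cotransporter, had 378 for the control pool against 343, 449 and 400.4 for VEGF CAMs 1, 2 and 3. SLC4A9, a bicarbonate transporter known from kidney intercalated cells in mammals, had 69.7 for the control pool against 74.0, 61.1 and 85.0 for VEGF CAMs 1, 2 and 3. In these probe sets the arrays overlapped and neither gene was called. SLC4A9 had its highest signal there in VEGF CAM 3 and SLC4A7 in VEGF CAM 2. A second, dimmer probe set of SLC4A7 gave log2 ratios of -1.22, 0.15 and -0.30 for VEGF CAMs 1, 2 and 3. One of SLC4A9 gave -0.26, -1.24 and -0.45. For both genes the mean log2 ratio differed in sign between the probe sets.

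Among the SLC26A genes, SLC26A9 was called higher and SLC26A5 lower. SLC26A9, a chloride transporter of epithelia, had 62.6 for the control pool against 249.7, 38.5 and 167 for VEGF CAMs 1, 2 and 3. VEGF CAMs 1 and 3 lay far above the control and VEGF CAM 2 below it (mean log2 ratio 0.91 ± 1.42 SD, n = 3, limma standard error 0.92, limma adjusted p = 0.869). The call ends by construction without VEGF CAM 1 (mean log2 ratio 0.36) or VEGF CAM 3 (0.65), the 2 that passed 2-fold. A second probe set of SLC26A9 past the filter gave 0.31, -3.11 and -0.10. SLC26A5, called prestin and known as the motor of outer hair cells in mammals, had 31.96 for the control pool against 12.4, 3.54 and 2.82 for VEGF CAMs 1, 2 and 3. The control was dim, and VEGF CAM 3 lay below the 20th percentile of all signals, 3.12, so the size of the difference is loose (mean log2 ratio -2.68 ± 1.15 SD, n = 3, limma standard error 1.57, limma adjusted p = 0.854). It passed the signal filter only through the control, since the VEGF CAMs had a mean signal of 6.26, below the filter, so the call is given as a description. It was past 2-fold below the control in all 3 comparisons, and an offset of 32 ended the call, at a mean log2 ratio of -0.75.

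SLC26A11, a sulfate and chloride transporter, had 459 for the control pool against 308, 418 and 474 for VEGF CAMs 1, 2 and 3. SLC26A1, a sulfate transporter, was dim at 14.4 for the control pool against 15.8, 19.7 and 19.5 for VEGF CAMs 1, 2 and 3. Neither was called, and VEGF CAM 1 was the lowest array for SLC26A11 in this probe set. A second, dim probe set of SLC26A11 gave log2 ratios of 0.49, -3.34 and -1.71, past 2-fold lower in VEGF CAMs 2 and 3. Pendrin (SLC26A4) and SLC26A7, the chloride and bicarbonate exchangers of kidney intercalated cells, lay below the filter, with signals up to 9.91 and 5.53. Of the 10 members below the filter, 4 exceeded it on at least 1 array, and their mean signals ran from 2.37 to 9.57.

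The remaining 17 members past the filter had mean log2 ratios from -1.93 for SLC26A8 to 0.50 for SLC26A6, both dim, and none was called. The VEGF CAMs had a mean signal of 10.8 for SLC26A8, below the filter, so it passed only through the control. SLC26A6, at 9.62 for the control pool, passed through the VEGF CAMs. The log2 ratios of SLC26A8 were -0.16, -5.19 and -0.43 for VEGF CAMs 1, 2 and 3. Its mean thus rests on VEGF CAM 2, at a signal of 0.54. CA10, a catalytically inactive relative named after its values were seen, differed widely between arrays, at 16.7 for the control pool against 1.16, 31.0 and 12.2 for VEGF CAMs 1, 2 and 3. The order of its arrays differed between its 2 probe sets past the filter, the second giving 29.4 for the control pool against 0.32, 14.1 and 3.87 for VEGF CAMs 1, 2 and 3.

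In the RefSeq annotation (assembly GRCg7b), CA13, CA3A, CA3B, CA2 and ATP6V0D2 are 5 consecutive protein-coding genes on chromosome 2. By the probe sets of highest mean signal, CA3B was the only one of them called, and CA3A was below the filter. The mean log2 ratio was -0.07 for CA13, -0.15 for CA2 and -0.55 for ATP6V0D2. Single VEGF CAMs lay above the control for CA13 (0.14, -0.10 and -0.24) and for CA2 (0.04, 0.48 and -0.96). None did for ATP6V0D2 (-1.01, -0.21 and -0.45). SLC26A4 and SLC26A3, both below the filter, have 1 gene between them on chromosome 1.

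Lists of genes that work with these members stand beside the shares of all genes, 5.37% called higher and 6.03% lower. Of 15 subunits and partners of the V-ATPase that the name rule does not reach, 1 was called higher and 0 lower. That was CLCN4, a chloride and proton exchanger of endosomes, at 10.6 for the control pool against 29.7, 18.04 and 30.8 for VEGF CAMs 1, 2 and 3. The control value of CLCN4 was below the filter's signal of 11.1, so it passed the filter through the VEGF CAMs. Its call is given as a description. NCOA7 and OSTM1, the next largest, had mean log2 ratios of 0.34 and -0.32 and were not called. VEGF CAM 2 was the highest array for 5 of these 15, and their median log2 difference between VEGF CAM 2 and the mean of VEGF CAMs 1 and 3 was -0.02. Of 24 other acid, base and anion transporters, 1 was called higher and 2 lower. SLC9A2, a sodium and proton exchanger, was called lower at 30.5 for the control pool against 20.2, 6.66 and 3.24 for VEGF CAMs 1, 2 and 3. The mean of these VEGF signals lay below the filter's signal, so SLC9A2 passed the filter only through the control, and its call is given as a description. SLC12A7, a potassium and chloride cotransporter, was called lower at 26.6 for the control pool against 12.5, 21.9 and 6.45 for VEGF CAMs 1, 2 and 3. RHAG, an ammonia channel of red blood cells, was called higher at 117 for the control pool against 235, 248 and 253 for VEGF CAMs 1, 2 and 3, with all 3 VEGF CAMs alike and above the control. It is also a red blood cell marker.

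The same pump acidifies the lysosome. Of 23 lysosomal genes, 1 was called higher and 0 lower. TFEB, the transcription factor that drives lysosomal genes in mammals, was called higher at 13.7 for the control pool against 32.7, 54.6 and 13.9 for VEGF CAMs 1, 2 and 3, with VEGF CAM 3 at the level of the control. MITF, a related transcription factor, and LAMP2, a lysosomal membrane protein, had mean log2 ratios of 0.92 and 0.74 and were not called. The medians of the mean log2 ratio were -0.10 for the pump's partners, -0.09 for the other transporters and 0.14 for the lysosomal genes, against -0.07 for all genes.

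Of the members, 19 had more than 1 probe set past the filter, and for 14 of them the mean log2 ratios of their probe sets had both signs. ATP6V0A4, ATP6V0D2, SLC26A9, SLC4A2 and SLC4A4 are among these 14. The directions given for single members are those of the probe set of highest mean signal.

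**Figure D4:**
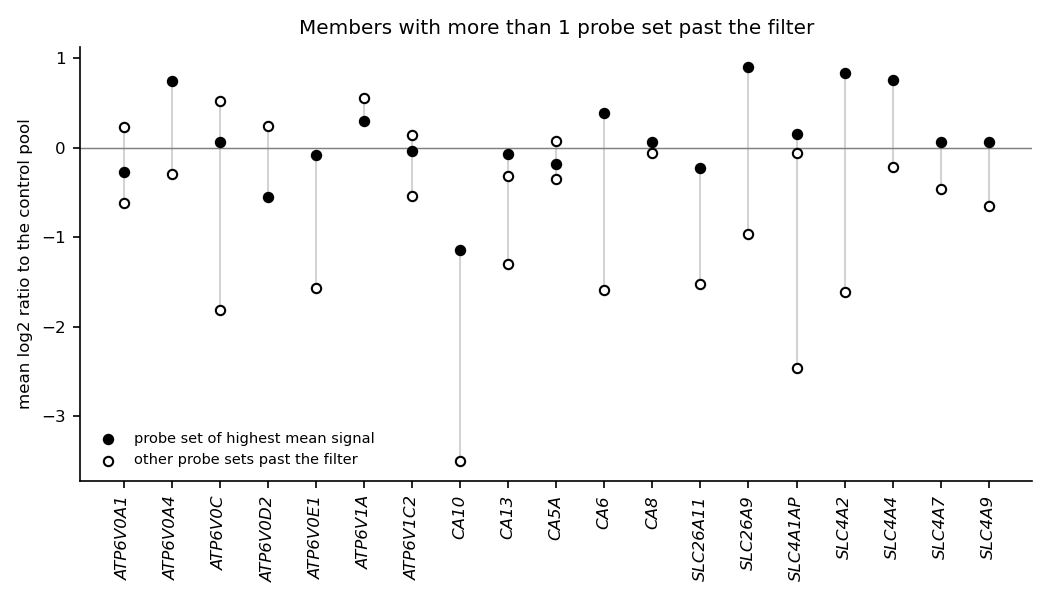
Mean log2 ratio to the control pool (vertical axis) of every probe set past the filter for the 19 members with more than 1; filled points are the probe sets of highest mean signal and open points the others. For 14 of the 19 genes the points lie on both sides of 0.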

How the data were processed

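RNA of 4 chick CAM samples was measured on Affymetrix chicken arrays. The deposited values are signal intensity, linear and with the same trimmed mean on each array, as the authors left them, and the submitters' processing notes name GCOS 1.2. All 4 value columns were used and 0 were left out. Detection calls, part of the study's selection, were not used, and a signal filter took their place: the 22616 of 37693 chicken probe sets with a mean signal above the 40th percentile.

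A gene was read from its probe set of highest mean signal, and probe sets with several symbols were not used. Log2 ratios to the control pool were called by the 2-fold rule. limma 3.58.1 (R 4.3.3, variance trend, 2 residual and 5.23 prior degrees of freedom) was adjusted by Benjamini-Hochberg over the 22616 probe sets. The code was tested on simulated data. P-values measure only the spread between these membranes.

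Named were members called by the rule, FOXI1, the 3 of highest mean signal in each class, those known from acid-secreting kidney cells or villus cavity cells, and up to 3 genes per further list with the largest mean log2 ratio in either direction. RefSeq, assembly GRCg7b, gave names (54 of 55 members matched by gene ID) and gene order. Members and lists were chosen with earlier results of these data known. No sequences were used. Other scalings, filters, offsets and choices of probe set, and leaving out each VEGF CAM, were tried as alternatives. The number of arrays limits the precision.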

Additional observations from a re-analysis of the deposited data

How the results depend on the processing

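No paired analysis was possible because the control is 1 pooled array and the groups share fewer than 2 replicate numbers. The count of members called higher, 3 on the deposited scale, was 1 with an offset of 32 added to the signal, 1 with the mean of a gene's probe sets, 0 when all 3 comparisons had to pass, and 1 to 1 when a VEGF CAM was left out. With 2 VEGF CAMs left the rule asks for both, so these losses follow from its construction. The gene left was CA4 without VEGF CAM 1, SLC26A9 without VEGF CAM 2 and SLC4A4 without VEGF CAM 3. Centring added SLC4A2 to the members called higher, and dropping the filter added SLC4A8. The count called lower, 2, was 0 with the offset, 1 with a 60th percentile filter and 4 with the probe set of highest control signal. Both genes called lower, CA3B and SLC26A5, were past 2-fold in all 3 VEGF CAMs, so leaving out 1 could not end their calls. The mean log2 ratio of SLC26A9 turned to -0.032 with the mean of probe sets. That of SLC4A4 turned to -0.22 with the probe set of highest control signal and ranged from -0.086 to 1.86 when a VEGF CAM was left out. These reversals follow from the values that entered each mean. The 2 probe sets of SLC26A9 past the filter had mean log2 ratios of 0.91 and -0.97. The -0.22 of SLC4A4 is the mean log2 ratio of its second probe set, where the control signal was higher. Without VEGF CAM 1, the log2 ratios left for SLC4A4 had opposite signs, at 1.28 and -1.45 for VEGF CAMs 2 and 3. Why probe sets and membranes differed was not tested. limma passed 0 members under all 13 settings run, the deposited scale included. Of 304 values of named members under the alternatives, 280 moved by less than the spread between VEGF CAMs, 21 moved by more, and 3 values of called genes reversed, those given above. Much of the 280 follows from construction. Leaving out 1 of 3 VEGF CAMs cannot move a mean by as much as their SD. A changed filter leaves a gene's value as it was. Centring moved 9 of the 28 named members past the filter, and the mean of probe sets moved 7 and reversed 1. Counting genes that were not called, 27 of the 304 had the opposite sign: 7 after centring, 5 with the mean of probe sets, 1 each with quantile normalization and the probe set of highest control signal, and 3, 6 and 4 without VEGF CAMs 1, 2 and 3. These include SLC4A2, at -0.39 with the mean of probe sets, and ATP6V1G3 and FOXI1 without VEGF CAM 2. Dim signals limit CA3B, CA4, SLC26A5 and SLC4A4, and the spread between control membranes was not measured.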
